A study of Mus musculus with 40 samples.

Results

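The effect of a high fat diet (HFD) was examined in the quadriceps, the large muscle of the thigh, of male C57BL/6J mice. The 20 quadriceps arrays of the study's 40 arrays were chosen by the muscle and the diet in the sample labels. They came from 20 mice, 10 on a low fat diet (LFD) with 10 kcal% fat and 10 on an HFD with 45 kcal% fat. All mice received the LFD as a run-in diet for 3 weeks from 9 weeks of age and were then randomly assigned to 8 weeks of either diet, and the labels give an age of 20 weeks. Both diets contained palm oil, and the mice were fasted for 6 hours before dissection. The other 20 arrays, from the gastrocnemius of the calf of the same mice, are used here only beside the quadriceps. In the labels the strain is written C56BL/6J. No allele, transgene or agent was part of the design. Each array held the RNA of 1 whole muscle of 1 mouse, so that fibers, fat cells, vessels and blood within the muscle were measured together.

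Skeletal muscle burns long-chain fatty acids that enter the fiber through carriers such as the fatty acid translocase CD36. They are activated to acyl-CoA, pass the inner mitochondrial membrane as carnitine esters and are shortened in the cycle of beta-oxidation. Unsaturated chains need auxiliary isomerases and a reductase that move or remove double bonds before the cycle can go on. Very long chains are first shortened in peroxisomes. Genes of all these steps are known targets of the fatty acid receptors PPAR alpha and PPAR delta, which bind DNA together with RXR.

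Signal intensities are the deposited linear values, in which the median of an array lay between 8.9 and 9.4. Signals near these medians are near background. The correlation between any 2 quadriceps arrays was 0.9859 to 0.9962 on the log2 scale. Between 38.4% and 39.5% of the probe sets of a quadriceps array were over 20. Of 16475 probe sets, 6479 had a mean over 20 across all 40 arrays and were tested. All 12 skeletal muscle markers were tested, with a summed signal of 103325.1 to 113431.5 in LFD mice and 102016.3 to 114116.1 in HFD mice. The array of LFD mouse 141 stood apart in genes that mark the muscle. *Tbx1*, a T-box factor with a far higher signal in the quadriceps than in the gastrocnemius, was at 242.0 there against 354.0 to 634.0 in the other LFD quadriceps. The same mouse had 205.3 in the gastrocnemius, where the other LFD mice had 36.0 to 56.3. Its quadriceps had the highest *Hoxd8* and *Hoxd9* of the LFD group, at 346.0 and 99.0. HFD mouse 145 stood apart in neutrophil markers.

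The HFD changed few genes. *Eci2* and *Decr1*, auxiliary enzymes that prepare unsaturated fatty acids for beta-oxidation, rose in the quadriceps, and so did *BC048679*, a gene named after a cDNA clone. With limma and a Benjamini-Hochberg FDR under 0.05, these 3 genes were higher on the HFD (0.0463% of those tested) and 0 were lower, while 156 were higher and 160 lower at an unadjusted p under 0.05. Only *BC048679* also exceeded the fold change of 1.3 that defines differential expression (0.0154%). The unadjusted counts are 2.41% and 2.47% of the tested genes, and the median log2 change of all tested genes was -0.01. The 95% confidence interval of a gene's log2 change reached 0.17 to either side at the median, a fold of 1.12, so that changes much smaller than this were not resolved with 10 mice per group.

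The promoters of 2 of the 3 genes are shown because their transcripts rose and the PPAR-RXR pair binds repeats of AGGTCA. They run from 250 bases before to 50 after the annotated start (RefSeq, GRCm38.p6), in the direction of the gene, with the CCAAT box, read on either strand, in capitals.
*Eci2*, chr13:34994095-34994394, minus strand: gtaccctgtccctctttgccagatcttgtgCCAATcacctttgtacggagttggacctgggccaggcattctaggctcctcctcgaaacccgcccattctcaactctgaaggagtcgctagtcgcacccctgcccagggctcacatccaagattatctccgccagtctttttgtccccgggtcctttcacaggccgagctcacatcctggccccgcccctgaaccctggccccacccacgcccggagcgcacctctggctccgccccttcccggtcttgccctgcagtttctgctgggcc
*BC048679*, chr7:81498281-81498580, minus strand: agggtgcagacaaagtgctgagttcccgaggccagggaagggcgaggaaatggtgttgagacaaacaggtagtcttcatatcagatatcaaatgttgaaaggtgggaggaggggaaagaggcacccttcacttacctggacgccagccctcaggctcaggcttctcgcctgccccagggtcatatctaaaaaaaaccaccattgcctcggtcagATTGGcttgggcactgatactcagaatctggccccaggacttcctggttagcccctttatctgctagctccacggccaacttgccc
The letters AGGTCA and CACGTG, searched on both strands, were not in these windows. CCAAT was found once in each, at -220 on the strand of *Eci2* and at -36 on the opposite strand of *BC048679*. Of all 32851 promoters of the table, 16.3% held AGGTCA, 7.2% CACGTG and 37.4% CCAAT. Of the 24 mitochondrial fatty acid oxidation genes described below, 19 had an entry, and AGGTCA was in 4 of them (21.1%), in *Acadm*, *Acadvl*, *Cpt1a* and *Echs1*. CCAAT was in 8 (42.1%) and CACGTG in 0.

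*BC048679* had the largest change of the genes that passed. Its signal intensity was 109.1 at the lowest, 194 at the median and 331.5 at the highest in LFD mice, and 279.1, 389 and 619.2 in HFD mice. All 10 HFD mice lay above the LFD median and 7 lay above the highest LFD mouse, so that the groups overlapped. The mean was 200.4 ± 62.6 (SD, n = 10) on the LFD and 402 ± 112 on the HFD, a log2 change of 1.02 (standard error 0.18) with limma's adjusted p of 0.0277. Mouse 141 was the lowest LFD mouse and mouse 145 the highest HFD mouse.

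*Eci2* encodes an enoyl-CoA isomerase, which shifts a double bond so that the beta-oxidation cycle can accept it. It ranged from 560.1 to 613.0 (median 583) in LFD mice and from 636.7 to 723.3 (median 678) in HFD mice. *Decr1*, the mitochondrial 2,4-dienoyl-CoA reductase, ranged from 624.7 to 772.3 (median 699.9) and from 797.8 to 1148.0 (median 856). The 2 groups of mice did not overlap for either gene, which held for 2 of the 6479 genes with the HFD higher (0.0309%) and for 0 with the HFD lower. The log2 change of *Eci2* was 0.21 (standard error 0.04) and that of *Decr1* was 0.38 (standard error 0.07), each with limma's adjusted p of 0.0277. *Eci2* thus rose 1.16-fold, well under the threshold of 1.3, while *Decr1* rose 1.299-fold as a ratio of geometric means and 1.306-fold as a ratio of arithmetic means.

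These calls were near their limit. When 1 mouse was left out, limma's adjusted p ranged from 0.00975 to 0.0754 for *BC048679*, from 0.0174 to 0.0754 for *Eci2* and from 0.0174 to 0.0761 for *Decr1*. No gene reached an FDR under 0.05 without LFD mouse 141, 142, 147, 156 or 160 or without HFD mouse 149 or 152. Without mice 141 and 145 together the adjusted p was 0.0889 for each of the 3 genes, with log2 changes of 0.85 for *BC048679*, 0.19 for *Eci2* and 0.33 for *Decr1*.

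**Figure D1:**
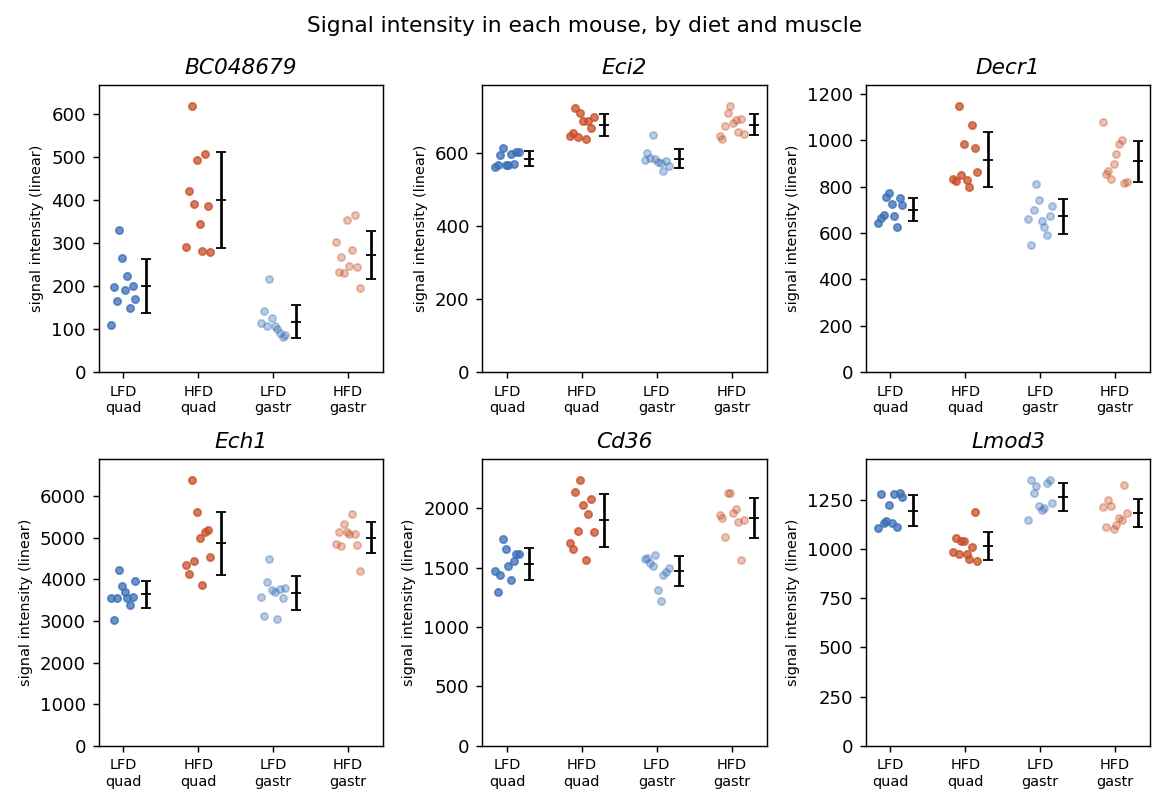
Signal intensity (linear, y axis) of 6 genes in each mouse, with LFD in blue and HFD in orange, quadriceps at the left and gastrocnemius at the right of each panel; points are mice, and the black marks are the mean and SD of 10 mice. In the quadriceps the LFD and HFD mice do not overlap for *Eci2* and *Decr1* and overlap for the other 4 genes; *Ech1*, *Cd36* and *Lmod3* did not pass the FDR in the quadriceps.

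*Ech1* and *Cd36* had the next values among genes of fat use. *Ech1*, a dienoyl-CoA isomerase of peroxisomes and mitochondria, ranged from 3033.7 to 4237.3 (median 3569) in LFD mice and from 3853.9 to 6389.9 (median 4770.0) in HFD mice. Its log2 change was 0.41 (standard error 0.08) with an adjusted p of 0.0716 (limma). *Cd36*, the fatty acid translocase, ranged from 1295.4 to 1738.6 (median 1535) and from 1564.6 to 2239.1 (median 1879), a log2 change of 0.31 with an adjusted p of 0.136. All 10 HFD mice were above the LFD median for both genes, but neither passed the FDR. When all 40 arrays were fitted together, so that the gastrocnemius arrays of the same mice entered the estimate of the spread, both passed, and 12 genes did in all.

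Of 24 genes of mitochondrial fatty acid oxidation, 22 were tested. *Eci2* and *Decr1* were the 2 that passed the FDR. At an unadjusted p under 0.05, 13 of the 22 were higher on the HFD and 1 was lower, beside 2.41% and 2.47% of all tested genes. The signal was higher on the HFD for 20 of the 22, with a median log2 change of 0.17 beside -0.01 for all tested genes. Without mice 141 and 145 the count at p under 0.05 was 11 and the median 0.15. The mean log2 signal of the 22 genes, set against its LFD mean, was -0.133 to 0.125 in LFD mice (median 0.01) and -0.054 to 0.343 in HFD mice (median 0.11). The 2 groups overlapped in this mean, with 5 of 10 HFD mice above the highest LFD mouse.

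At the carnitine shuttle, *Slc25a20*, the carnitine-acylcarnitine carrier, was at 820.5 in LFD and 1002 in HFD mice (medians), with a log2 change of 0.27. *Cpt2*, which restores acyl-CoA inside the mitochondrion, had a mean of 899 ± 89.9 and 1115 ± 162 and a change of 0.30. *Cpt1b*, the muscle form of the enzyme that commits fatty acids to the shuttle, was at 1186 ± 145 and 1355 ± 254, a change of 0.18 with a 95% interval of -0.02 to 0.38. Of the HFD mice, 10 lay above the LFD median for *Slc25a20*, 9 for *Cpt2* and 8 for *Cpt1b*, and their adjusted p was 0.269 for *Cpt2*, 0.405 for *Slc25a20* and 0.999 for *Cpt1b*. *Mlycd*, which degrades malonyl-CoA, the inhibitor of that committing enzyme, had a change of 0.17 (adjusted p of 0.807).

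The acyl-CoA dehydrogenases open the cycle. *Acadl*, for long chains, had a mean of 3132 ± 254 on the LFD and 3764 ± 381 on the HFD and the third smallest p of the list (log2 change 0.26, adjusted p of 0.158). *Acadvl* and *Acadm*, for very long and medium chains, had changes of 0.17 and 0.14. *Acad9*, which also assembles complex I, was the 1 member lower at an unadjusted p under 0.05, with a change of -0.23 and 9 of 10 HFD mice under the LFD median. The subunits of the trifunctional protein, *Hadha* and *Hadhb*, had changes of 0.26 and 0.16, and the thiolase *Acaa2* 0.23. *Eci1*, the other enoyl-CoA isomerase, had 0.15, against 0.21 for *Eci2*. *Etfdh*, which passes the electrons of the dehydrogenases to the respiratory chain, had 0.18. None of these 9 genes passed the FDR (adjusted p of 0.158 to 0.928), and the signs were positive for 8 of them.

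**Figure D2:**
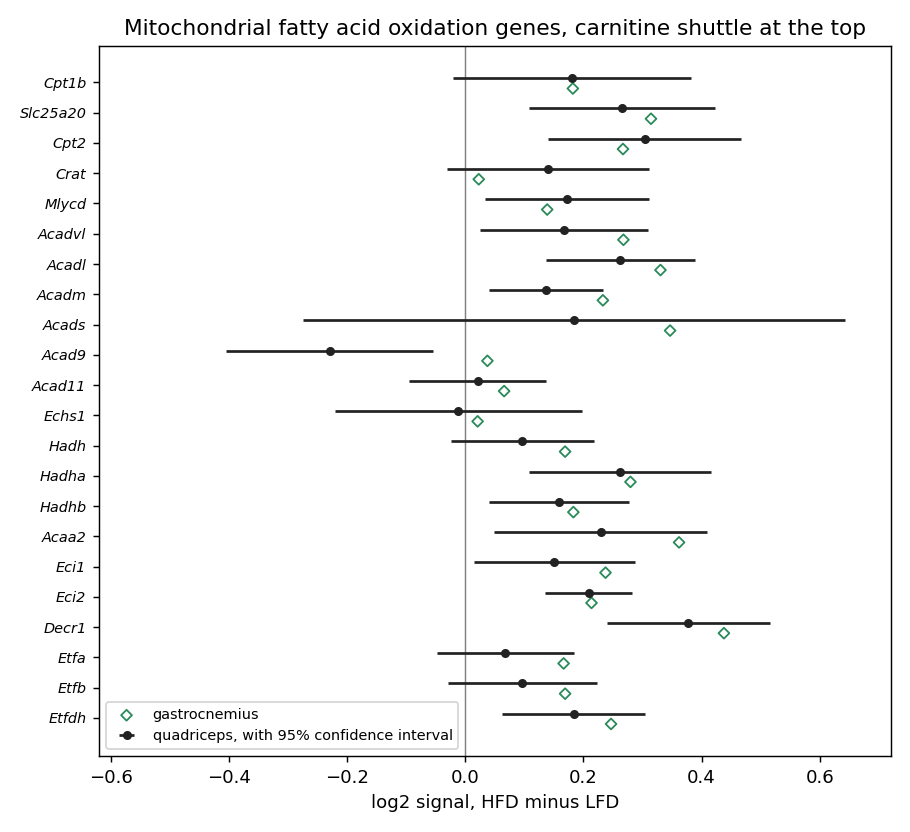
Log2 signal on the HFD minus that on the LFD (x axis) for the 22 tested genes of mitochondrial fatty acid oxidation, from the carnitine shuttle at the top to electron transfer at the bottom; black points with bars are the quadriceps with 95% confidence intervals, green diamonds the gastrocnemius of the same mice. The quadriceps points lie right of 0 for 20 genes and left of it for *Acad9* and *Echs1*.

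In peroxisomes and among the acyl-CoA thioesterases, 17 of 21 genes were tested and 0 passed the FDR (median log2 change 0.07). Higher at an unadjusted p under 0.05 were 4 and lower 2, beside 2.41% and 2.47% of all tested genes. Beside *Ech1*, the multifunctional enzyme *Hsd17b4* was at 629 ± 37.4 in LFD and 702 ± 36.1 in HFD mice, and *Cat*, the catalase, at 1240 ± 210 and 1443 ± 128. *Ehhadh*, a second multifunctional enzyme of the same pathway, had the opposite sign, with 66.0 ± 11.6 and 55.4 ± 3.74 and a log2 change of -0.23. The thioesterase *Acot1* was near background and not tested (7.94 ± 2.09 and 10.2 ± 3.66).

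Of 16 genes of fatty acid uptake and activation, 13 were tested and 0 passed the FDR. Higher at an unadjusted p under 0.05 were 2, beside 2.41% of all tested genes. These were *Cd36* and *Slc27a1*, the fatty acid transport protein of muscle, which was at 177 ± 32.03 in LFD and 229.7 ± 39.4 in HFD mice, a log2 change of 0.39. *Acsl1*, which activates fatty acids in muscle, had a change of 0.17 (95% interval -0.00 to 0.34) and *Lpl*, the lipase that frees them from lipoproteins, 0.10 (95% interval -0.09 to 0.29). *Fabp3* was not analysed here.

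Among 13 tested genes of lipid droplets and lipolysis, *Plin5*, the perilipin that ties droplets to mitochondria, had the smallest p. It ranged from 164.0 to 292.5 (median 241) in LFD mice and from 222.6 to 534.0 (median 334) in HFD mice, a log2 change of 0.56 with an adjusted p of 0.264. Of the HFD mice, 8 were above the highest LFD mouse and the other 2 were under the LFD median. *Mgll*, the monoacylglycerol lipase, had a change of 0.31, *Plin2* 0.23 and *Cidec*, a droplet protein of fat cells, 0.75. The *Cidec* interval ran from -0.02 to 1.52, and 0 genes of the list passed the FDR. The list had 2 genes higher and 0 lower at an unadjusted p under 0.05, beside 2.41% and 2.47% of all tested genes. *Dgat2*, which completes triacylglycerol synthesis, had a change of 0.41 (adjusted p of 0.991).

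Well-known genes of the fasting and fat response were not among those that passed. *Pdk4*, the kinase that blocks pyruvate oxidation, was at 8611 ± 850.4 on the LFD and 8202 ± 893 on the HFD, a log2 change of -0.07 with a 95% interval of -0.21 to 0.07. *Ucp3*, an uncoupling protein, had a change of -0.28 (interval -0.81 to 0.26) and *Angptl4*, a lipase inhibitor, 0.35 (interval -0.07 to 0.77). *Slc25a34*, a mitochondrial carrier, had 0.49, with 8 of 10 HFD mice above the highest LFD mouse and an adjusted p of 0.651. Of the 9 tested genes of this list of PPAR targets and fuel switches, 0 passed the FDR, and the median change was 0.02.

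Genes of fatty acid synthesis had a median log2 change of -0.13 over 11 tested genes, with 0 past the FDR. *Fasn* alone was lower at an unadjusted p under 0.05, beside 2.47% of all tested genes. *Fasn*, the fatty acid synthase, was 49.7 to 642.1 (median 88.8) in LFD mice and 27.9 to 119.9 (median 49.2) in HFD mice, a change of -0.98 (standard error 0.35, adjusted p of 0.651). LFD mouse 159 was at 642.1, with the next LFD mouse at 163.9. The same mouse was the highest for *Acly*, which supplies acetyl-CoA for synthesis, at 220.0 against 103.5 in the next. *Acly*, *Thrsp* and *Srebf1*, further genes of lipid synthesis, had changes of -0.31, -0.32 and -0.18. Without mouse 159 the changes were -0.17 for *Acly*, -0.19 for *Thrsp*, -0.19 for *Srebf1* and -0.70 for *Fasn*.

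The respiratory chain and the citric acid cycle stayed near 0 in the same arrays. Of 59 tested subunits of the respiratory chain and ATP synthase, 30 had a positive and 29 a negative sign, with log2 changes of -0.11 to 0.08. Of 22 genes of the citric acid cycle, 12 had a positive sign, with changes of -0.06 to 0.11. In both lists 0 genes passed the FDR and 0 had an unadjusted p under 0.05. Among 16 tested regulators of mitochondria, 12 had a negative sign. *Ppargc1a*, the coactivator PGC-1 alpha, was at 178 ± 45.5 and 155 ± 48.2 (change -0.23, interval -0.59 to 0.14), and *Tfb1m*, a mitochondrial methyltransferase, had -0.23 with 36.0 ± 4.995 and 30.6 ± 3.71. Mitochondrial ribosomal proteins had a negative sign in 45 of 54 genes, with a median of -0.04 beside -0.01 for all tested genes. Cytosolic ribosomal proteins had it in 14 of 14 tested, with a median of -0.05. Only 17 of the 63 cytosolic genes listed had a probe set, so that these values cover a part of the ribosome. Of the 68 tested genes of both lists, 0 passed the FDR and 2 were lower at an unadjusted p under 0.05, beside 2.47% of all tested genes. Glycolysis and glycogen genes had a median of -0.01. *Fbp2*, the muscle fructose bisphosphatase, was the 1 of 23 with an unadjusted p under 0.05 (change 0.27). Of all tested genes, 2.41% were higher at that p. Branched-chain amino acid genes had a median of -0.03 over 27 genes, and 0 passed the FDR. At an unadjusted p under 0.05, 2 were higher and 2 lower, beside 2.41% and 2.47% of all tested genes. The 2 higher were *Hadha* and *Hadhb*, which are also on the fatty acid oxidation list. *Mccc1*, a carboxylase of leucine breakdown, was among the lower, at -0.17.

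**Figure D3:**
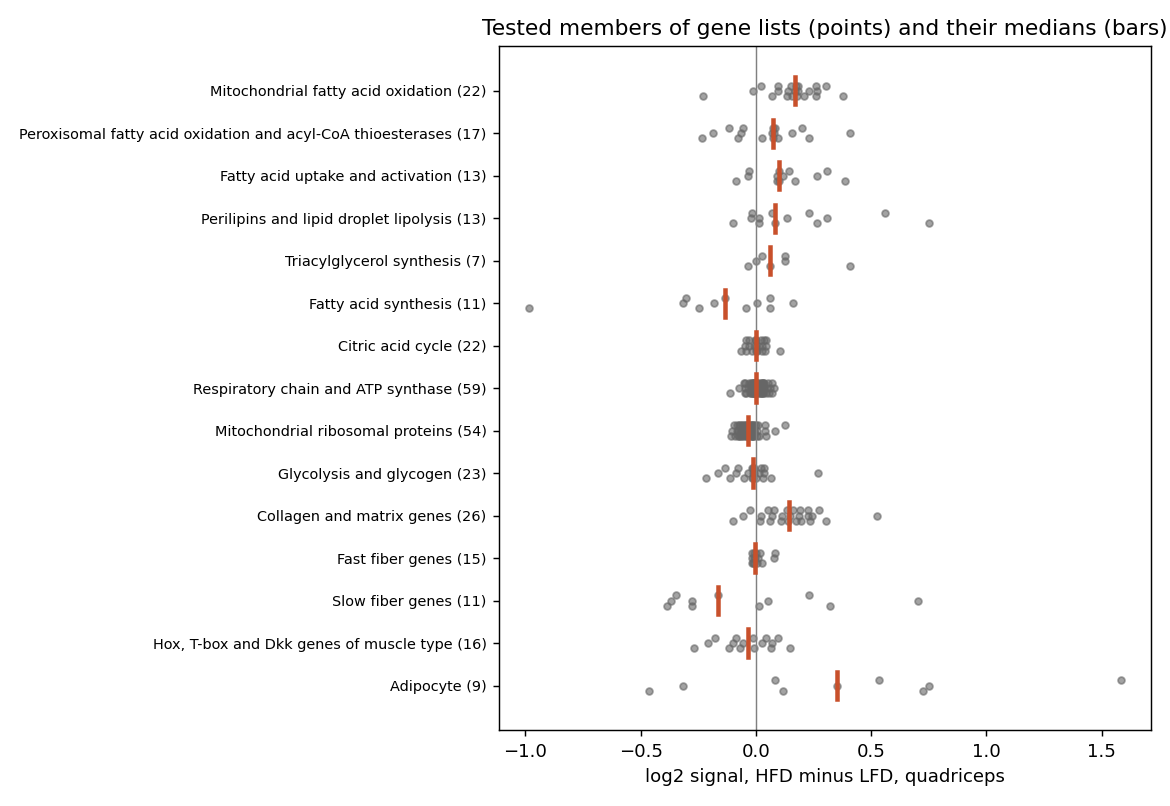
Log2 signal on the HFD minus that on the LFD in the quadriceps (x axis) for the tested members of 15 gene lists, with the number tested in parentheses; points are genes and orange bars the list medians. The fatty acid oxidation points lie mostly right of 0 (20 of 22) and the respiratory chain and citric acid cycle points lie close to 0. The fat cell marker farthest to the right is *Lep*, which passed the filter only through the HFD quadriceps and is included in the median of its list.

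No gene was lower on the HFD at an FDR under 0.05 (limma), and the 12 with the smallest p are given as not called. *Lmod3*, leiomodin 3, which nucleates actin filaments in the sarcomere, ranged from 1107.0 to 1284.9 (median 1183) in LFD and from 940.2 to 1186.4 (median 997) in HFD mice, a log2 change of -0.24 with an adjusted p of 0.0945. Of the HFD mice, 9 lay under the lowest LFD mouse, and mouse 157, at 1186.4, lay above the LFD median. *Nrep*, a small protein also called P311, had -0.31, and *Mlf1* had -0.30. *Mpp3*, a scaffold protein of the membrane, had the largest change of the 12, at -0.49, with 180.1 ± 34.7 and 129 ± 23.3. *Map2k6*, a kinase that activates p38, had -0.34, *Cbr2*, a carbonyl reductase, -0.44 and *St3gal5*, which makes the ganglioside GM3, -0.36. *Ddx52*, an RNA helicase, had -0.41, *Tbc1d7*, a subunit of the TSC complex, -0.23, and *Slc19a2*, a thiamine transporter, also -0.23, at signals only just over the filter (26.6 ± 1.80 and 22.8 ± 2.03). *Ndufaf6*, which assembles complex I, had -0.18 and *Supt4b*, a copy of a transcription elongation factor gene that may share probes with its near-identical copy, -0.20. The adjusted p of the 11 genes after *Lmod3* was 0.118 to 0.357.

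Among the 12 genes with the smallest p in the other direction, 6 were on no list of fat use, *BC048679* and 5 that did not pass the FDR. *Vwa8*, a mitochondrial ATPase, had a log2 change of 0.24 (159 ± 9.99 and 189 ± 16.1), *Retsat*, the retinol saturase, 0.33 and *Mboat7*, an acyltransferase of phosphatidylinositol, 0.30. *Mybph*, a myosin-binding protein, had 0.46 and *Sparc*, a matrix glycoprotein, 0.30. The adjusted p of these 5 was 0.118 to 0.264, and all 10 HFD mice lay above the LFD median for *Vwa8*, *Retsat*, *Mboat7* and *Mybph* and 9 of 10 for *Sparc*.

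*Sparc* is also one of 26 tested collagen and matrix genes. Of these, 23 had a positive sign (median 0.14, beside -0.01 for all tested genes) and 0 passed the FDR. At an unadjusted p under 0.05, 7 were higher and 0 lower, beside 2.41% and 2.47% of all tested genes. *Col4a2*, a chain of basement membrane collagen, was at 355 ± 29.0 and 422 ± 54.3 (log2 change 0.24). *Postn*, periostin, was at 77.2 ± 23.3 and 109 ± 22.3 (0.52), and *Serpinh1*, the collagen chaperone, at 591 ± 111 and 709.7 ± 95.9 (0.27). Markers of cells that make such transcripts had mostly the same sign, and 0 of them had an unadjusted p under 0.05. Higher on the HFD were 10 of 12 fibroblast (median 0.06), 10 of 13 endothelial (median 0.12) and 6 of 7 tendon markers (median 0.17). *Col1a1*, *Col1a2* and *Col3a1* are on both the fibroblast and the matrix list, so that these genes count in both. Among other cell types, 6 of 8 macrophage, 6 of 8 smooth muscle and pericyte, 4 of 6 satellite cell and 1 of 4 Schwann cell markers were higher. The fibroblast and endothelial markers had summed signals of 17717.5 to 21578.8 and 1371.3 to 1878.9 in LFD and 16641.2 to 22398.2 and 1523.3 to 1907.6 in HFD mice. Their part in the matrix values was not tested.

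Fat cell markers did not all have the same sign. Of the 9 tested, 7 were higher and 2 lower on the HFD. The 7 include *Lep*, whose sign was favored by the way it passed the filter. *Lep*, leptin, was at 6.9 to 17.7 (median 8.8) in LFD mice, near background, and at 8.5 to 186.7 (median 29.3) in HFD mice, with 6 of 10 above every LFD mouse. Its mean over all arrays was 20.7 and without the HFD quadriceps 13.2, so that it passed the filter of 20 only through the group where it was high, and its test is not used. *Adig*, adipogenin, had a change of 0.73 and *Adipoq*, adiponectin, 0.53, at 928 ± 228 and 1432 ± 633. Both had an unadjusted p under 0.05 but did not pass the FDR (adjusted p of 0.486 and 0.88, limma). *Cfd*, adipsin, was at means of 866 and 647, a change of -0.47 (95% interval -1.01 to 0.08), and *Thrsp*, also on this list, had -0.32. *Pck1*, which was not tested, was at means of 33.2 and 21.2. The summed signal of the 11 markers with a probe set was 11911.8 to 17817.3 in LFD and 12171.5 to 18312.5 in HFD mice. Most of it came from *Fabp4* (means of 6089 and 6604) and *Car3* (5569 and 5782), so that the other markers hardly weigh in this sum. In whole muscle, more cells of a type and more RNA per cell cannot be told apart. The mean log2 signal of the 9 tested markers, *Lep* among them, also served as a covariate, chosen after the data were seen. *BC048679*, *Eci2* and *Decr1* then had log2 changes of 1.12, 0.19 and 0.38 and adjusted p of 0.072, 0.161 and 0.148 (limma). The number of fatty acid oxidation genes higher at an unadjusted p under 0.05 was 13. Since *Lep* passed the filter only through the HFD quadriceps, nothing is concluded from this covariate.

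Neutrophil markers differed widely between mice of the same diet. Their summed signal was at most 83.1 in 6 LFD mice and 796.3 to 2705.5 in the other 4. It was at most 80.4 in 4 HFD mice, 1246.8 to 2580.6 in 5 and 14082.9 in mouse 145. *Lcn2*, lipocalin 2, was at 4.6 to 61.0 and 5.1 to 713.9. Of the 15 markers with a probe set, 6 were tested, and 3 of these (*Camp*, *Lcn2* and *Ltf*) passed the filter only through the HFD quadriceps, so that no summary of their changes is given. The tests of these 3 are not used, and none of the other tested markers had an unadjusted p under 0.05. With the mean log2 signal of all 6 as a covariate, *BC048679*, *Eci2* and *Decr1* had an FDR under 0.05. In that fit 11 fatty acid oxidation genes were higher at an unadjusted p under 0.05. Since the covariate holds the 3 markers that passed only through the HFD quadriceps, nothing is concluded from it. *Acp5*, a phosphatase of osteoclasts and macrophages, had a change of 0.68 (adjusted p of 0.76). All 9 T cell markers with a probe set were near background, with sums of 32.8 to 39.8 and 35.4 to 39.1.

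**Figure D4:**
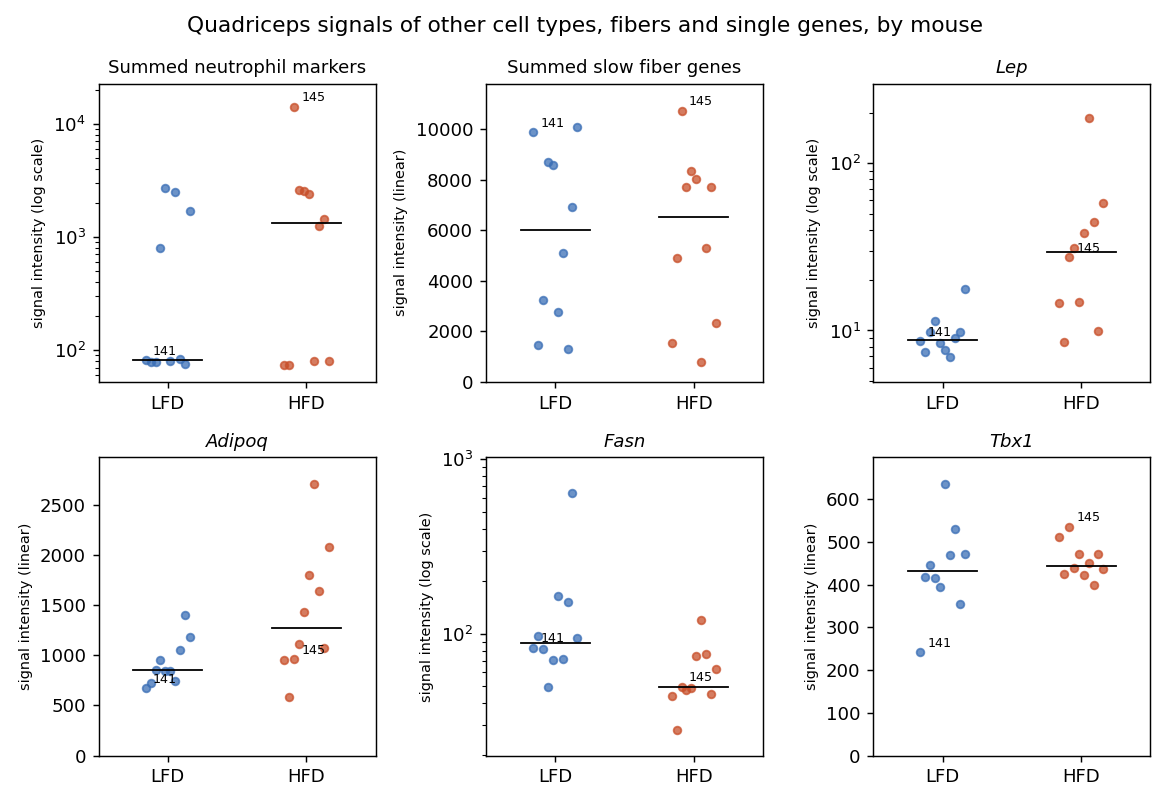
Quadriceps signal intensity of each mouse (points; y axis linear or, where labelled, log) for summed neutrophil markers, summed slow fiber genes, *Lep*, *Adipoq*, *Fasn* and *Tbx1*, with LFD in blue, HFD in orange and group medians as lines; mice 141 and 145 are numbered. Mouse 145 is far above the others in neutrophil markers (14082.9), mouse 141 is the lowest for *Tbx1* (242.0), and slow fiber sums span a wide range in both groups.

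Genes of fiber type and muscle identity, which the study is about, showed no call, and the width of their intervals differed greatly. The summed slow fiber signal was 1291.9 to 10079.1 in LFD and 785.8 to 10738.2 in HFD mice. Of 11 tested slow fiber genes, 5 had a positive and 6 a negative sign. Their log2 changes ran from -0.39 to 0.70 (median -0.17), and 0 had an unadjusted p under 0.05. *Myh7*, the slow myosin heavy chain, had a log2 change of -0.28 with a 95% interval of -2.56 to 2.01. *Tnni1*, *Tnnt1*, *Tnnc1* and *Myl2*, other slow fiber proteins, had 0.01 (-1.66 to 1.69), -0.37 (-2.23 to 1.49), -0.28 (-1.755 to 1.196) and -0.39 (-2.002 to 1.228). Changes of 2-fold in either direction thus lie within these intervals. The lowest signals of *Myh7* were near background, at 3.2 in LFD and 4.9 in HFD mice. Those of *Tnni1* were 4.9 and 6.0, of *Tnnt1* 8.0 and 7.3, of *Tnnc1* 10.9 and 12.1 and of *Myl2* 31.7 and 28.4. The fast myosins were measured far more closely, with -0.02 (-0.12 to 0.09) for *Myh1*, 0.08 (-0.22 to 0.39) for *Myh2* and -0.01 (-0.28 to 0.26) for *Myh4*.

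*Tbx1* had a log2 change of 0.09 (-0.15 to 0.34) and *Tbx15* of -0.05 (-0.27 to 0.16). *Dkk3*, which encodes a secreted Dickkopf protein, was at 98.1 ± 17.9 and 86.5 ± 35.5, a change of -0.27 (-0.67 to 0.13). *Hoxd8* had 0.07 (-0.41 to 0.55) and *Hoxd9* -0.18 (-0.77 to 0.42), with mouse 141 included. Without that mouse the change of *Hoxd9* was 0.07. *Hoxd10* was near background and not tested (4.95 ± 2.19 and 4.13 ± 0.65). Of 16 tested Hox, T-box and Dkk genes and others that mark muscle type, 0 passed the FDR and 0 had an unadjusted p under 0.05.

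In the gastrocnemius of the same mice, the same test found 37 genes higher (0.571%) and 12 lower (0.185%) at an FDR under 0.05, of which 17 and 3 exceeded the fold change of 1.3. *BC048679* was at 117 ± 39.1 on the LFD and 273 ± 55.1 on the HFD there, a log2 change of 1.25 against 1.02 in the quadriceps. *Eci2* and *Decr1* had 0.21 and 0.44 against 0.21 and 0.38, and all 3 passed the FDR in both muscles. *Ech1*, *Cd36*, *Acadl*, *Plin5* and *Retsat* passed in the gastrocnemius with changes of 0.45, 0.38, 0.33, 0.76 and 0.37, against 0.41, 0.31, 0.26, 0.56 and 0.33 in the quadriceps. Of the 22 fatty acid oxidation genes, 10 passed in the gastrocnemius and 2 in the quadriceps, with medians of 0.22 and 0.17. *Mlf1*, *Nrep* and *Map2k6* passed as lower in the gastrocnemius with -0.34, -0.35 and -0.36. The muscles share their mice, so that these values are not independent.

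Whether the diet effect differed between the muscles was tested itself, by an interaction term fitted over the 40 arrays. It had an FDR under 0.05 for 0 genes and an unadjusted p under 0.05 for 118 (limma), and the lowest FDR was 1. With the mouse as a replicate block the count was again 0, with 203 genes at an unadjusted p under 0.05. The difference of the changes, quadriceps minus gastrocnemius, was -0.23 (-0.71 to 0.25) for *BC048679*, -0.00 (-0.10 to 0.09) for *Eci2* and -0.06 (-0.25 to 0.13) for *Decr1*. *Lmod3* had -0.24 in the quadriceps and -0.10 in the gastrocnemius, a difference of -0.14 (-0.26 to -0.01). Larger differences with opposite signs were found for *Mboat7*, whose change was 0.30 against -0.14 in the gastrocnemius (difference 0.44, 0.21 to 0.67), and for *Ddx52*, with -0.41 against 0.08 (difference -0.49, -0.76 to -0.22). These 3 were named for their small p in the quadriceps, a choice that favors a large difference. The intervals are from the fit without the mouse as a block. *Lmod3*, *Mboat7* and *Ddx52* did not pass the FDR of the interaction (adjusted p of 0.9998, limma). Of the tested genes, 0 thus had a diet effect that was shown to differ between the muscles.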

How the data were processed

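RNA of whole muscles was hybridised to Affymetrix GeneChip mouse genome arrays. The authors normalized the arrays with GCRMA (version not given in the sources used here) with probe sets redefined by gene, and deposited linear signal intensities, 1 value per probe set and array. The intensities were transformed to log2 here, while the deposited values themselves are linear and not log2. There were 0 files with unused sample columns.

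Probe sets with a mean intensity over 20 across all 40 arrays were kept, as in the methods of the study. HFD and LFD quadriceps were compared with limma 3.58.1 in R 4.3.3 (lmFit and eBayes, 10 against 10 arrays), with the Benjamini-Hochberg FDR over all 6479 tested probe sets and a fold threshold of 1.3. Tables were made with Python 3.11.15, numpy 2.4.6 and pandas 2.3.3, and figures with matplotlib 3.10.9. The fit was tested on simulated data. Array intensities carry no counting depth, so that the number of mice limits the precision, and differences between near-background signals are compressed.

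The lists and alternatives were chosen with earlier results of these data known. Named genes are those called, the 12 with the smallest p in each direction, up to 4 per list, and fixed genes of fat use and muscle type. *Slc25a20*, *Etfdh*, *Acadm*, *Acaa2*, *Mlycd*, *Acadvl*, *Eci1*, *Acad9* and *Cfd* fall outside this rule and were named after their values were seen. Further genes are named only for their level, sign, filter, list or promoter motif. Samples were grouped by the labelled muscle and diet, and no mouse number is shared between the diets. Both muscles of a number are from the same mouse. The median correlation of their deviations from the group means was 0.388 in LFD mice and -0.0689 in HFD mice.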

Additional observations from a re-analysis of the deposited data

Results flagged for a closer look

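In each diet group the highest or lowest quadriceps array was set against the other 9 for 79 of the tested genes named here. By Dixon's criterion, 14 of the 158 groups held an array far from the rest. Chance flags about 1 in 20 groups. LFD mouse 141 accounted for 4 of them. It was the highest for *Hoxd8* (346.0, next 147.2) and *Hoxd9* (99.0, next 25.2) and the lowest for *Myh1* (9063.1, next 10440.8) and *Adig* (13.6, next 24.6). LFD mouse 159 was the highest for *Fasn* (642.1, next 163.9) and *Acly* (220.0, next 103.5). HFD mouse 145 was the highest for *Mboat7* (163.1, next 130.5) and the lowest for *Myh4* (7762.9, next 11568.0). HFD mouse 143 was the lowest for *Cat* (1156.6, next 1357.7) and the highest for *Tbc1d7* (181.2, next 155.0). The remaining arrays were each far from the rest for 1 gene. LFD mouse 154 was the highest for *Mybph* (2121.8), HFD mouse 157 the highest for *Lmod3* (1186.4), LFD mouse 160 the highest for *Lep* (17.7) and LFD mouse 142 the lowest for *Mccc1* (353.4).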

How the results depend on the processing

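The count of fatty acid oxidation genes higher at an unadjusted p under 0.05 was 11 to 14 under the alternatives and 12 to 15 with 1 mouse left out, beside 13. The lower end of 11 was also reached without mice 141 and 145. Nothing is concluded from the fits with neutrophil or fat cell markers as covariates. The count of genes at an FDR under 0.05 was less stable, and the cause was not tested. It was 12 with all 40 arrays in 1 fit (3 called higher, 1 lower), 7 with slow fiber genes as a covariate (4 higher, 1 lower), 5 with a trended and robust variance (2 higher) and 0 without a filter, where 16475 probe sets were tested (0 higher). It was also 0 with fat cell markers as a covariate (0 higher) and without mice 141 and 145 (0 higher), both chosen after seeing the data. The fat cell covariate holds *Lep*, and the neutrophil covariate holds *Camp*, *Lcn2* and *Ltf*, which passed the filter only through the HFD quadriceps. The genes called higher were 2 with a filter of 50, 3 with quantile normalization repeated, 3 with no fold threshold and 2 with arithmetic means. With 1 mouse left out, 0 to 3 genes were called higher, 0 to 1 lower and 0 to 8 had an FDR under 0.05. *Map2k6* was the gene called lower, without HFD mouse 144.

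Named genes that turned direction, none of them past the FDR, were genes of muscle type and *Cidec*. Some had changes near 0, but *Myh7*, *Tnnt1*, *Tnnc1* and *Cidec* had changes of -0.28, -0.37, -0.28 and 0.75. *Tnni1* was at -0.046 with log2(signal + 20), -0.12 with array weights and -0.74 with neutrophil markers as a covariate. *Myh4* was at 0.019 with array weights, 0.085 with neutrophil markers, 0.037 with fat cell markers and 0.078 without mice 141 and 145. *Hoxd9* was at 0.040 with array weights and 0.12 without these mice, and *Tbx1* at -0.023 without them. *Tbx15* was at 0.021 with neutrophil and 0.040 with fat cell markers, *Myh2* at -0.030 with neutrophil markers, and *Cidec*, itself a fat cell marker, at -0.047 with fat cell markers. Again, nothing is concluded from the fits with neutrophil or fat cell markers. With 1 mouse left out, the log2 change ranged from -0.018 to 0.26 for *Hoxd8*, -0.29 to 0.068 for *Hoxd9*, -0.045 to 0.00059 for *Myh1*, -0.0016 to 0.15 for *Myh2*, -0.058 to 0.071 for *Myh4*, -0.82 to 0.17 for *Myh7*, -0.32 to 0.32 for *Tnni1*, -0.79 to 0.024 for *Tnnt1* and -0.62 to 0.016 for *Tnnc1*.

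The diets share no mouse number, so that a replicate block bears only on the interaction of diet and muscle. With a fixed or a random replicate block for the mouse, the interaction had 0 genes at an FDR under 0.05 (limma), as without it, with 203 and 196 at an unadjusted p under 0.05 and lowest FDRs of 0.848 and 0.398. The muscles of 1 mouse correlated best with each other in 6 of 10 LFD and 2 of 10 HFD mice.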
